A study of Mus musculus with 3 samples.

Results

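Type IV collagen is the sheet-forming collagen of basement membranes, the thin layers of matrix under epithelia and around vessels, muscle and nerve. Each molecule is a triple helix of α chains, and 6 genes, Col4a1 to Col4a6, code for the chains. The chains α1 and α2 assemble together and are present in nearly all basement membranes. A network of α3, α4 and α5 chains forms in a few tissues, among them the kidney glomerulus and the inner ear, and variants in the human genes COL4A3, COL4A4 and COL4A5 cause Alport syndrome, with kidney disease and hearing loss. The α5 chain also assembles with α6. The 6 genes were chosen by name, as all members of the family among the 32285 genes of the count table. They were followed through the cell types in samples of mouse cochlea.

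RNA was counted in single cells by 10x 3′ sequencing of cochleae from C57BL/6J mice. The NIHL group (noise-induced hearing loss) heard 115 dB for 4 h for 3 days, the HHL group (hidden hearing loss) heard 110 dB for 2 h, and the control group heard no noise. Tissue was taken 6 h after the last exposure, with 1 library of 6 mice per group, while the labels used here state no age, sex or way of pooling. All 3 libraries stand in 1 table, where a barcode suffix of 1, 2 or 3 separates them. None of the labels says which suffix is which group. The libraries are therefore given by number, belong to no group here and were not compared as NIHL, HHL and control. With a single library per group, and cells that do not count as replicates, no test was run. A difference is set against the counting error and against the range over the 3 libraries, which can differ by exposure and by preparation.

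Libraries 1, 2 and 3 held 132576349, 93048140 and 146324872 UMIs, where a UMI is 1 counted RNA molecule. Of 39092 barcodes, 37188 were kept, with at least 500 UMIs, at least 200 genes and at most 20% mitochondrial UMIs. Most were blood or marrow cells: 26950 were leukocyte-like and 3761 erythroid-like. Lineages other than blood were gated by marker genes, with no Col4 gene among them, and took in 2737 barcodes. They are called cochlear classes below, although they include osteoblast-like cells and cells like marrow stroma and marrow sinusoids. Only 20 barcodes were hair cell-like and 3 neuron-like, so the sensory cells that mark a cochlea were nearly missing. Between 76 and 98 barcode sequences of each library also occurred in another library.

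Each class below is called after its marker list and means cells like that type. Fibrocytes, the matrix-rich cells of the spiral ligament and spiral limbus that recycle potassium, gave 843 barcodes. Fibroblast-like cells numbered 337, osteoblast-like cells 323, cells of Cxcl12-abundant marrow stroma 224, endothelial-like cells 188, myelinating Schwann-like cells 186, pericyte or smooth muscle-like cells 113, epithelial-like cells 106, and strial intermediate or melanocyte-like cells 55. The strial basal cell list drew 333 barcodes whose leading genes did not clearly carry that name, and they are called Cldn11-Itih5 stromal cells. Of the 7 fibrocyte markers, Coch had a UMI in 97.5% of the fibrocyte-like cells, Pou3f4 in 87.7%, Tbx18 in 74.1%, Otor in 56.0%, Car3 in 32.1%, Otos in 5.58% and Kcnk2 in 3.32%. In leukocyte-like cells Coch had a UMI in 11.9% and Pou3f4 in 0.353%. Levels are in CPM, the counts of a gene scaled to 1000000 UMIs of a class. Values in brackets are 95% intervals (exact Poisson) for counting error, and do not cover differences between mice or libraries.

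Col4a1 and Col4a2 lie head to head, and their promoters are shown because the starts lie close together and the levels of the pair followed each other over the cell classes. In RefSeq's windows for the build GRCm38.p6, from 250 bases before to 50 after each start, the Col4a1 window is chr8:11312777-11313076 on the minus strand and the Col4a2 window chr8:11312555-11312854 on the plus strand. Capitals mark the 78 bases that both windows hold, read from opposite strands, 5′ to 3′.
Col4a1: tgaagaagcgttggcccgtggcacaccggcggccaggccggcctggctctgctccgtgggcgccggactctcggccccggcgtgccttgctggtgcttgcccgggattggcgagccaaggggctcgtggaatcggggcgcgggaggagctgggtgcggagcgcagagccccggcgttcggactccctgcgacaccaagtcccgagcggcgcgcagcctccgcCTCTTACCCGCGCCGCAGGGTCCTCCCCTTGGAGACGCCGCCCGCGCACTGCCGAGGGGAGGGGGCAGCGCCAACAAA
Col4a2: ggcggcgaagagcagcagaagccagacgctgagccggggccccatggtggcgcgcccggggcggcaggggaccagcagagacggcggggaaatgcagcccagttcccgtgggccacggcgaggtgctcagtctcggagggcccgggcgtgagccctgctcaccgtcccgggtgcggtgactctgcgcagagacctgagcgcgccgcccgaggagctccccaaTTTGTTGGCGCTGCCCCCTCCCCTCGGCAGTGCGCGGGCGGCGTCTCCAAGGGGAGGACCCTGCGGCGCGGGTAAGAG
The starts are 21 bases apart. GC made up 74.0% of the Col4a1 window and 73.7% of the Col4a2 window, with 37 and 33 CpG sites, against a median of 52.7% GC and 7 CpG sites over all 32851 windows. The GC box letters GGGCGG, searched on both strands, occurred 1 time in the Col4a1 window and 3 times in the Col4a2 window, and 35.7% of all windows held them. CCAAT occurred 1 time in each, in neither case wholly within the shared bases, and is held by 37.4% of windows. The Alport gene Col4a4 (chr1:82586800-82587099, minus strand) had 63.3% GC and held neither motif, nor the TATA box letters TATAAA. Col4a5 (chrX:141475169-141475468, plus strand) had 52.7% GC, and Col4a6 (chrX:141474027-141474326, minus strand) 48.3%. Their starts are 1343 bases apart, so the windows do not meet. TATAAA, held by 13.6% of windows, was in none of the 5. Col4a3 had no window in the table.

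Over all kept barcodes the 6 genes differed widely in abundance. Col4a1 (ENSMUSG00000031502) had 5462 UMIs, Col4a4 (ENSMUSG00000067158) 5269, Col4a3 (ENSMUSG00000079465) 4491 and Col4a2 (ENSMUSG00000031503) 3442. Col4a5 (ENSMUSG00000031274), the X-linked Alport gene, had 752, and Col4a6 (ENSMUSG00000031273), the partner of α5, had 67 and never more than 2 in a barcode. Between 58.2% and 68.1% of the UMIs of each gene lay in the gated cochlear classes, which held 2737 of the 37188 barcodes. In the leukocyte-like class, which makes little basement membrane, the levels were 0.949, 0.916, 0.814, 1.33, 0.114 and 0.0204 CPM for Col4a1 to Col4a6, and 0.868% of these cells at most had a UMI of any 1 of the genes. These serve as a low background for free RNA, at a median of 6130.5 UMIs per cell against 4916 in the fibrocyte-like cells. Barcodes with at least 3 markers of a cochlear list were kept out of this class, so it does not sample all free RNA.

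**Figure D1:**
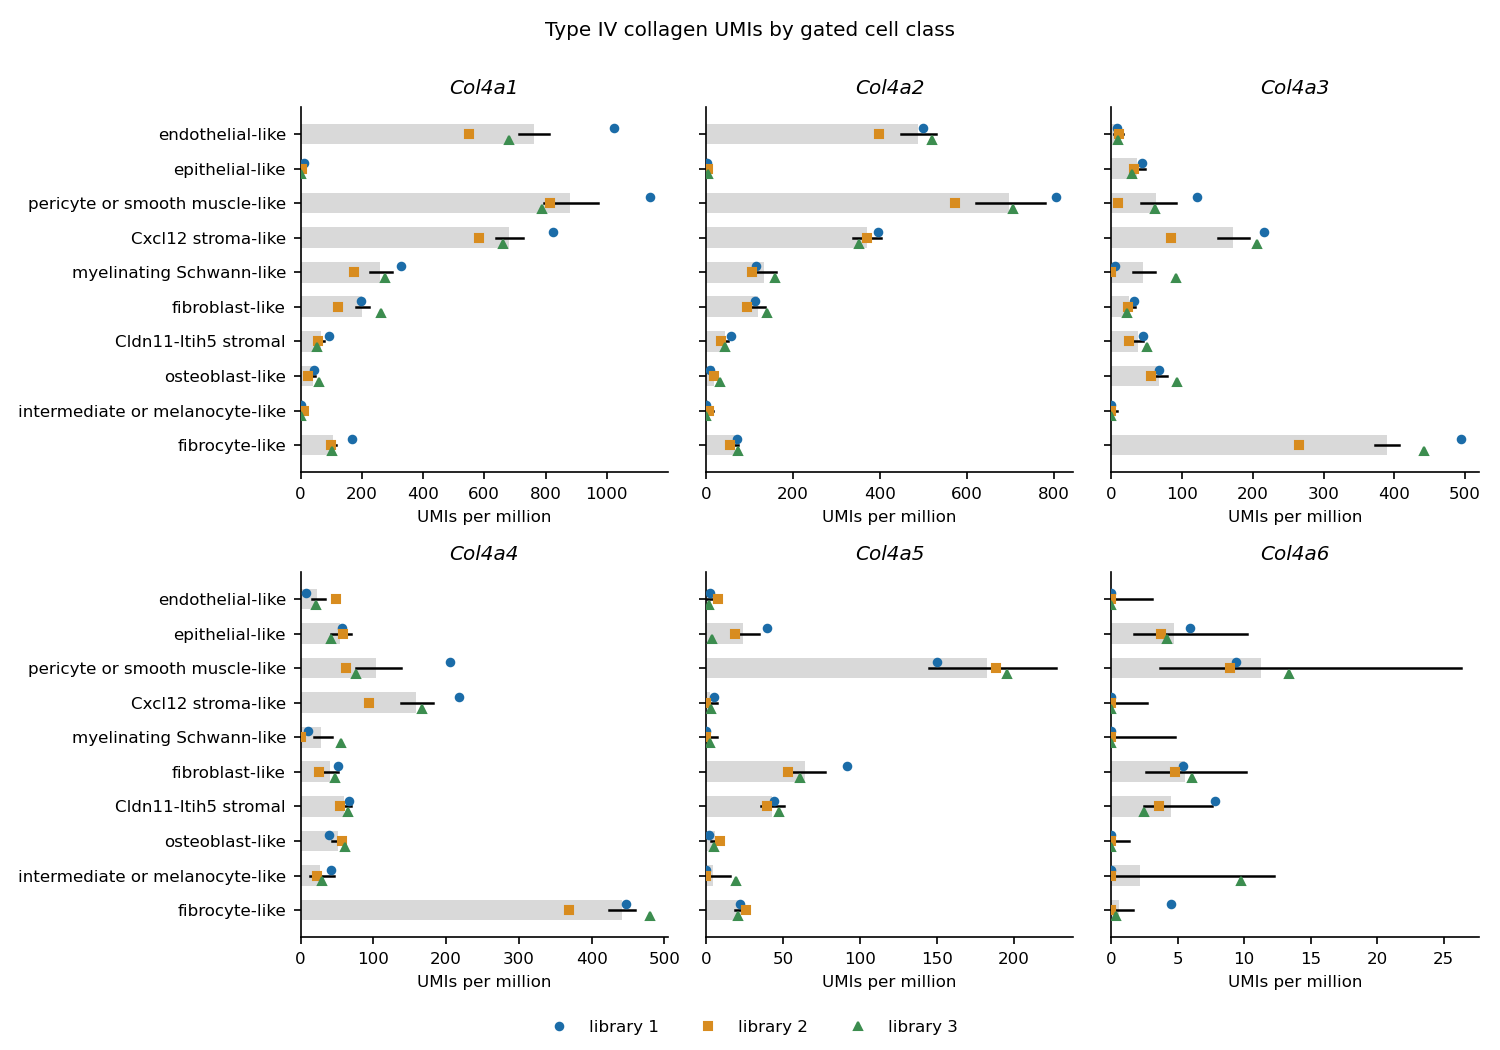
Level of each type IV collagen gene (CPM) in 10 gated classes other than blood. Bars give the 3 libraries summed, black lines the 95% counting interval, and circle, square and triangle libraries 1, 2 and 3; Col4a1 and Col4a2 stand highest in pericyte or smooth muscle-like, endothelial-like and Cxcl12-abundant stroma-like cells, Col4a3 and Col4a4 in fibrocyte-like cells, and Col4a5 in pericyte or smooth muscle-like cells.

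Col4a1 and Col4a2, which code for the α1 and α2 chains, were highest in 2 classes of vessel cells and in Cxcl12-abundant stroma-like cells. Pericyte or smooth muscle-like cells had 880 CPM of Col4a1 (795 to 972), endothelial-like cells 762 CPM (714 to 813) and Cxcl12-abundant stroma-like cells 681 CPM (638 to 726), with a UMI in 82.3%, 80.9% and 79.9% of cells. In libraries 1, 2 and 3 the pericyte or smooth muscle-like level was 1142, 816 and 787 CPM, and the endothelial-like level 1023, 551 and 679 CPM. Library 1 was highest in each of these classes, and the ranges of the 3 classes overlapped. Below them, with no overlap, came myelinating Schwann-like cells at 260 CPM (225 to 299), fibroblast-like cells at 201 CPM (181 to 222) and fibrocyte-like cells at 107 CPM (98.1 to 116), whose ranges overlapped from neighbour to neighbour. Cldn11-Itih5 stromal cells had 67.0 CPM and osteoblast-like cells 39.5 CPM. Strial intermediate or melanocyte-like and epithelial-like cells were lowest, at 6.59 CPM (3 UMIs) and 5.46 CPM (7 UMIs).

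For Col4a2 the same classes led, at 697 CPM in pericyte or smooth muscle-like cells (622 to 779), 488 CPM in endothelial-like cells (449 to 528) and 370 CPM in Cxcl12-abundant stroma-like cells (339 to 403). Here the library ranges of these 3 classes did not overlap. Schwann-like cells followed with 133 CPM, fibroblast-like cells with 119 CPM and fibrocyte-like cells with 67.0 CPM, and epithelial-like cells had 3.90 CPM (5 UMIs). The molecules counted of Col4a2 per molecule of Col4a1 were 0.792 in pericyte or smooth muscle-like cells (0.680 to 0.922), 0.640 in endothelial-like cells (0.576 to 0.710) and 0.628 in fibrocyte-like cells (0.548 to 0.718). The other classes lay between 0.454 in osteoblast-like and 0.649 in Cldn11-Itih5 stromal cells. Col4a2 was thus counted less often than Col4a1 in each of these 8 classes. A UMI count does not scale with transcript length, but the capture of 3′ ends can differ between genes, so such a ratio is not a chain ratio.

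**Figure D2:**
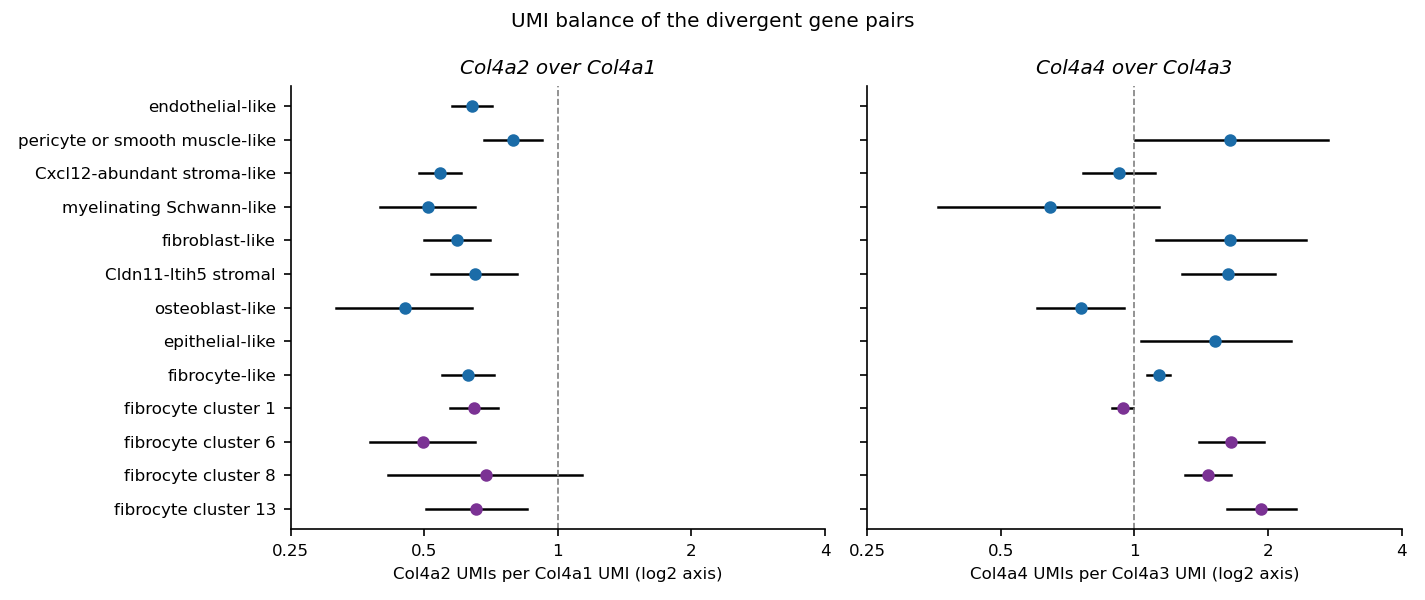
Molecules of Col4a2 counted per molecule of Col4a1, and of Col4a4 per molecule of Col4a3, by class and fibrocyte cluster on a log2 axis. Points give the 3 libraries summed with the 95% counting interval; the first ratio lies below 1 throughout, while the second is 0.940 in fibrocyte cluster 1 and 1.93 in cluster 13.

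Col4a3 and Col4a4, the autosomal Alport genes that code for α3 and α4, had their highest level in fibrocyte-like cells. Of 11444 genes with at least 100 UMIs in the 10 classes, 4.09% were highest there. Col4a3 measured 389 CPM (372 to 406) with a UMI in 59.5% of the cells, and Col4a4 442 CPM (424 to 460) with a UMI in 69.3%. By library, Col4a3 was 495, 266 and 442 CPM in libraries 1, 2 and 3, and Col4a4 was 448, 369 and 481 CPM. Library 2 was lowest for each gene, and the lowest library of the fibrocyte-like class still lay above the highest library of every other class. Next came Cxcl12-abundant stroma-like cells, with 172 CPM of Col4a3 (151 to 195) and 159 CPM of Col4a4 (139 to 181). Pericyte or smooth muscle-like cells had 63.2 and 104 CPM of the 2 genes, osteoblast-like cells 68.0 and 51.6 CPM, and Cldn11-Itih5 stromal cells 37.1 and 60.3 CPM. The library ranges of these 4 classes overlapped between neighbours in the order of levels but not between all pairs: Col4a3 ranged from 56.8 to 92.5 CPM in osteoblast-like cells and from 24.3 to 51.0 CPM in Cldn11-Itih5 stromal cells. Strial intermediate or melanocyte-like cells had 0 UMIs of Col4a3, which allows up to 6.59 CPM, and 12 UMIs of Col4a4 (26.4 CPM).

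Several of those second places came from few cells. Cells were also clustered without the Col4 genes, and 4 clusters, numbered 1, 6, 8 and 13, had fibrocyte-like as their most frequent gated class, with at least 40% of their cells. Of the 224 cells gated as Cxcl12-abundant stroma, 42 lay in cluster 1 and carried 89.1% of the class's Col4a3 UMIs and 91.4% of its Col4a4 UMIs, but 5.20% of its Col4a1 UMIs. Without cells of the 4 clusters, that class had 0 UMIs of Col4a3 and 1 UMI of Col4a4, and its own cluster, led by Adipoq and Cxcl12, kept 781 CPM of Col4a1. In the osteoblast-like gate 39 cells of cluster 1 carried 69.9% of the Col4a3 UMIs, and in the Cldn11-Itih5 stromal gate 61 cells of cluster 13 carried 76.5%. These cells lie outside the fibrocyte-like gate, and their type was not tested. Within cluster 1, Col4a3 measured 1168 CPM in Cxcl12-abundant stroma-like, 740 CPM in osteoblast-like and 871 CPM in fibrocyte-like cells. Within cluster 13, it measured 159 CPM in Cldn11-Itih5 stromal cells against 53.8 CPM in fibrocyte-like cells. Without the fibrocyte clusters, Col4a3 measured 16.1 CPM in osteoblast-like cells (11.4 to 22.0) and 10.2 CPM in Cldn11-Itih5 stromal cells (6.60 to 15.1). Endothelial-like cells kept 1 UMI of Col4a3 and 5 of Col4a4, and pericyte or smooth muscle-like cells kept 39.0 CPM of Col4a3 (22.3 to 63.4) and 46.3 CPM of Col4a4 (27.9 to 72.4). With no cells left out, the pericyte or smooth muscle-like class held 28 UMIs of Col4a3 and 46 of Col4a4. Its libraries then ranged widely, from 8.96 to 122 CPM of Col4a3 and from 62.7 to 206 CPM of Col4a4.

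Col4a5 codes for α5, the X-linked Alport chain that partners both α3α4 and α6. It was highest in pericyte or smooth muscle-like cells, at 183 CPM (145 to 227) with a UMI in 46.9% of the cells. Its level there was 150, 188 and 196 CPM in libraries 1, 2 and 3, above every other class in each library. Col4a1 and Col4a2 were highest in the same class, as were 12.3% of 11444 genes. Fibroblast-like cells had 64.5 CPM of Col4a5 (53.4 to 77.3), Cldn11-Itih5 stromal cells 42.9 CPM (35.9 to 50.8), epithelial-like cells 24.2 CPM (16.4 to 34.3) and fibrocyte-like cells 22.6 CPM (18.7 to 27.0). Over libraries the epithelial-like range (4.22 to 39.4 CPM) overlapped both the Cldn11-Itih5 stromal range (39.3 to 47.3 CPM) and the fibrocyte-like range (20.8 to 25.9 CPM), while those of the stromal and fibrocyte-like cells did not overlap each other. In the fibrocyte-like cells, Col4a5 was counted 120 times, against 2067 times for Col4a3 and 2346 times for Col4a4. Endothelial-like cells had 4 UMIs of it (3.28 CPM).

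Col4a6 was close to the limit of detection. Pericyte or smooth muscle-like cells had 5 UMIs (11.3 CPM, 3.66 to 26.3), fibroblast-like cells 10 UMIs (5.51 CPM, 2.64 to 10.1), Cldn11-Itih5 stromal cells 14 UMIs (4.51 CPM), epithelial-like cells 6 UMIs (4.68 CPM) and fibrocyte-like cells 3 UMIs (0.565 CPM). Endothelial-like cells had none, which allows up to 2.46 CPM. No fibrocyte-like cell held both Col4a5 and Col4a6, with 104 and 3 cells holding 1 of them. The 20 hair cell-like barcodes had 0 UMIs of all 6 genes, which allows up to 16.2 CPM of each.

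Endothelial-like cells and fibrocyte-like cells were nearly opposite in the family. Of the 5 genes with at least 20 UMIs in the pair of classes, 2 were at least 2-fold higher in endothelial-like cells, as were 15.0% of 12148 genes, and 3 were at least 2-fold lower, as were 16.5%. Col4a1 measured 1023, 551 and 679 CPM in endothelial-like cells of libraries 1, 2 and 3, against 168, 98.5 and 103 CPM in fibrocyte-like cells, a log2 ratio of 2.84 (2.68 to 2.99). Col4a2 measured 499, 399 and 521 CPM in endothelial-like cells, against 71.6, 54.7 and 73.2 CPM in fibrocyte-like cells, with a log2 ratio of 2.86 (2.67 to 3.06). The library ranges of the 2 classes did not overlap for either gene, and the summed ratios amount to 7.14-fold and 7.28-fold. Taken within libraries 1, 2 and 3, the Col4a1 ratio was 6.10-fold, 5.59-fold and 6.62-fold, each below the summed one. For Col4a2 it was 6.97-fold, 7.29-fold and 7.13-fold.

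Col4a3 had 3, 3 and 5 UMIs in endothelial-like cells of libraries 1, 2 and 3, against 221, 461 and 1385 UMIs in fibrocyte-like cells. Its summed level was 43.1-fold lower in endothelial-like cells (24.0 to 86.4), a log2 ratio of -5.43. Col4a4 measured 7.67, 49.4 and 21.3 CPM in endothelial-like cells, against 448, 369 and 481 CPM in fibrocyte-like cells, and was 19.2-fold lower (13.3 to 29.0). Library 2 was the highest endothelial-like library for Col4a4, still below every fibrocyte-like one. Of the 28 Col4a4 UMIs in the class, 5 were left once cells of the fibrocyte clusters were left out. With the stricter gate the log2 ratios of Col4a3 and Col4a4 were -6.75 and -6.55, and over clusters -7.68 and -7.09. The cluster value of Col4a3 counts 1 endothelial UMI as 3, so it is a bound and not a measured size. The size of the difference thus rests on how the classes were drawn and its direction does not. Col4a5 was 6.88-fold lower, from 4 UMIs in endothelial-like cells against 120 in fibrocyte-like cells.

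Both endothelial clusters shared this pattern. The first, led by Fabp4, Ubd, Stab2, Kdr and Plvap, held 134 cells with 851 CPM of Col4a1 and 540 CPM of Col4a2. Stab2 and Plvap are genes of marrow sinusoids. Of its cells 73.1% were gated endothelial-like, with 823 CPM of Col4a1, and 17 as Cxcl12-abundant stroma, with 900 CPM. The other cluster, led by Ly6c1, Abcb1a and Slc2a1, genes of vessels with a barrier, held 79 cells with 817 CPM of Col4a1 and 454 CPM of Col4a2. Col4a3 had 0 UMIs in the sinusoid-like cluster and 1 in the barrier-like cluster. The pericyte or smooth muscle cluster of 111 cells had 915 CPM of Col4a1 (826 to 1010) and 200 CPM of Col4a5 (160 to 248).

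Epithelial-like cells differed from fibrocyte-like cells in another way, since 4 of 5 genes were at least 2-fold lower and none at least 2-fold higher. Over 12422 genes 14.7% were lower and 15.5% higher by that fold. Col4a1 was 19.5-fold lower (7 UMIs in epithelial-like cells against 567 in fibrocyte-like cells) and Col4a2 17.2-fold lower (5 against 356). Col4a3 measured 43.3, 31.7 and 29.5 CPM in epithelial-like cells of libraries 1, 2 and 3, against 495, 266 and 442 CPM in fibrocyte-like cells, and was 10.8-fold lower (8.10 to 14.9). Col4a4 measured 57.1, 57.8 and 42.2 CPM in epithelial-like cells, against 448, 369 and 481 CPM in fibrocyte-like cells, and was 8.09-fold lower (6.38 to 10.4). Neither gene overlapped between the classes.

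Col4a5 did not separate the classes. It measured 39.4, 18.6 and 4.22 CPM in epithelial-like cells of libraries 1, 2 and 3, against 22.4, 25.9 and 20.8 CPM in fibrocyte-like cells. The log2 ratio of 0.10 has an interval of -0.52 to 0.68 that holds 0, it was -0.67 without library 1, and it depends on 20, 10 and 1 UMIs. Within the epithelial-like class the Alport genes thus outnumbered the α1 and α2 genes, with 46, 70 and 31 UMIs of Col4a3, Col4a4 and Col4a5 against 7 and 5 of Col4a1 and Col4a2.

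**Figure D3:**
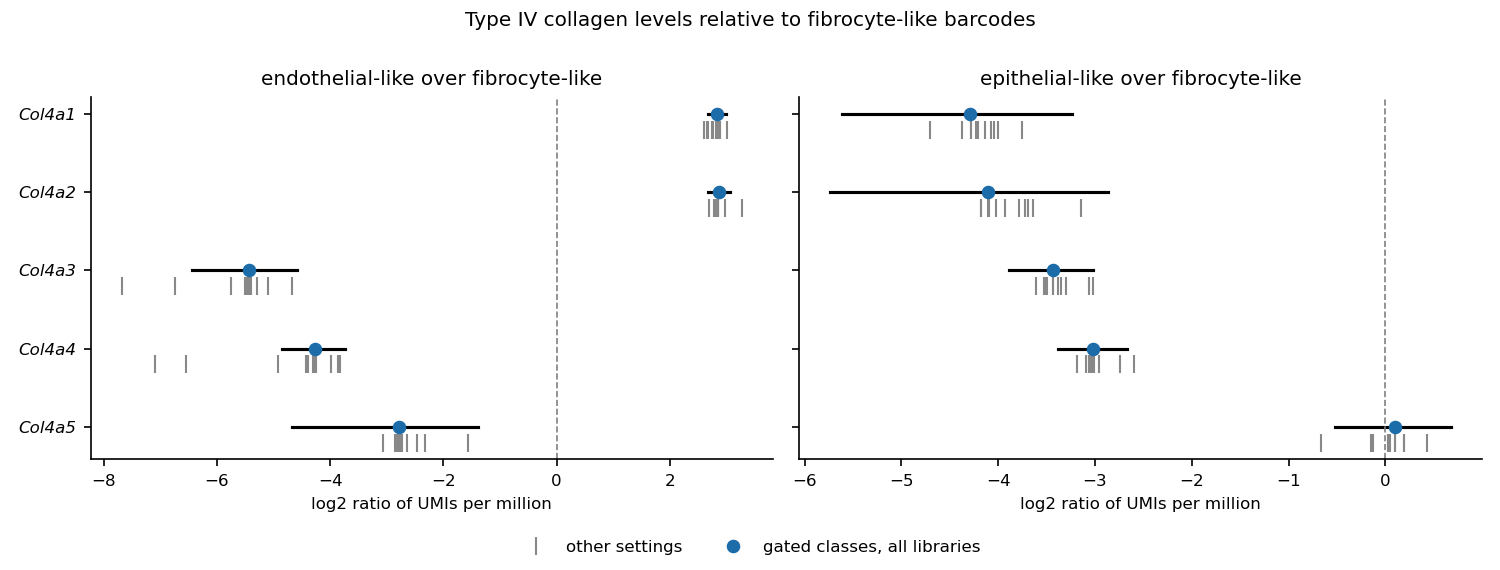
Log2 ratio of the level in endothelial-like and in epithelial-like cells over fibrocyte-like cells for Col4a1 to Col4a5. Points and lines give the 3 libraries summed with the 95% counting interval, and ticks the other processing settings; the endothelial-like ratio is 2.84 for Col4a1 and -5.43 for Col4a3, and the epithelial-like ratio of Col4a5 lies on both sides of 0.

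The epithelial-like class was itself mixed. By their own marker lists, 19 of its cells were like Reissner's membrane, the thin sheet between scala media and scala vestibuli. They had 28 UMIs of Col4a4 (137 CPM, 91.1 to 198), in 13 cells, and 3 UMIs of Col4a3 (14.7 CPM, 3.03 to 42.9). The 12 cells like supporting or sulcus cells, which line the organ of Corti and are a known site of the α3α4α5 network, had 3 UMIs of Col4a4, 4 of Col4a5 and 0 of Col4a3. Another 5 cells were like strial marginal cells and had 0 UMIs of every gene of the family. The 69 cells that none of these lists reached held 43 of the class's 46 Col4a3 UMIs and 39 of its 70 Col4a4 UMIs. The epithelial cluster led by Vmo1, Rnase1 and Ceacam16, the last a protein of the tectorial membrane, held 83 cells with 53.6 CPM of Col4a4 (38.8 to 72.1), 28.6 CPM of Col4a5 and 17.4 CPM of Col4a3 (9.54 to 29.3). A cluster of 44 cells led by Bpifa1, a secreted airway and middle ear protein, had 77.9 CPM of Col4a3 (56.6 to 105) and 58.4 CPM of Col4a4. By summed UMIs Col4a3 was thus higher in the Bpifa1 cluster than in the Vmo1 cluster beyond counting error. With cells thinned to 1000 UMIs, 10.0% of the Bpifa1 cluster (2.79 to 23.7) and 1.25% of the Vmo1 cluster (0.0316 to 6.77) had a UMI. Those intervals overlap. Too few inner ear epithelial cells were held to place the genes within them.

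The fibrocyte clusters were not uniform, and each also held cells outside the fibrocyte-like gate. Gated fibrocyte-like cells made up 51.8% of cluster 1, 41.1% of cluster 6, 63.3% of cluster 8 and 44.4% of cluster 13. Cluster 1 (655 cells) was led by Cntn1, Npr3, Themis and Ccl7, cluster 6 (353 cells) by Dner, Fst and Rgs7bp, cluster 8 (338 cells) by Rarres1, Otor and Emcn, and cluster 13 (252 cells) by Otos, Slc4a11 and Gjb2, of which Gjb2 codes for the gap junction protein connexin 26. Cluster 1 held 41.0% of the cells of these clusters but 75.5% of their Col4a3 UMIs and 64.2% of their Col4a4 UMIs. It had 891 CPM of Col4a3 (857 to 925), against 252 CPM in cluster 8, 134 CPM in cluster 6 and 93.2 CPM in cluster 13. In gated fibrocyte-like cells alone the level was 871 CPM in cluster 1, 272 in cluster 8, 124 in cluster 6 and 53.8 in cluster 13. By library, cluster 1 measured 848, 581 and 1102 CPM in libraries 1, 2 and 3, and each library there lay above every library of the other 3 clusters. Col4a3 would have ranked 1st and Col4a4 3rd by fold among the leading genes of cluster 1, although neither was used to form it.

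Col4a4 was spread less unevenly. It measured 837 CPM in cluster 1 (805 to 871), 369 CPM in cluster 8 (342 to 397), 221 CPM in cluster 6 (199 to 245) and 180 CPM in cluster 13 (162 to 200). The molecules of Col4a4 counted per molecule of Col4a3 were 0.940 in cluster 1 (0.891 to 0.993), 1.47 in cluster 8 (1.30 to 1.65), 1.65 in cluster 6 (1.40 to 1.96) and 1.93 in cluster 13 (1.61 to 2.32). Cluster 1 thus differed from the others beyond counting error. Its ratio was 0.843, 1.14 and 0.913 in libraries 1, 2 and 3.

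Col4a1 followed another order. It had 213 CPM in cluster 1 (197 to 230), 98.0 CPM in cluster 6 (83.6 to 114), 74.9 CPM in cluster 13 (63.4 to 87.8) and 22.2 CPM in cluster 8 (42 UMIs). Cluster 8, with Otor and Coch high, therefore had the second highest level of Col4a3 and Col4a4 with the lowest of Col4a1 and of Col4a2 (15.3 CPM). Its Col4a5 was lowest too, at 4.76 CPM (9 UMIs), against 44.0 CPM in cluster 6, 36.2 CPM in cluster 13 and 29.3 CPM in cluster 1. Col4a5 was the only one of the first 5 genes for which cluster 1 did not rank first.

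**Figure D4:**
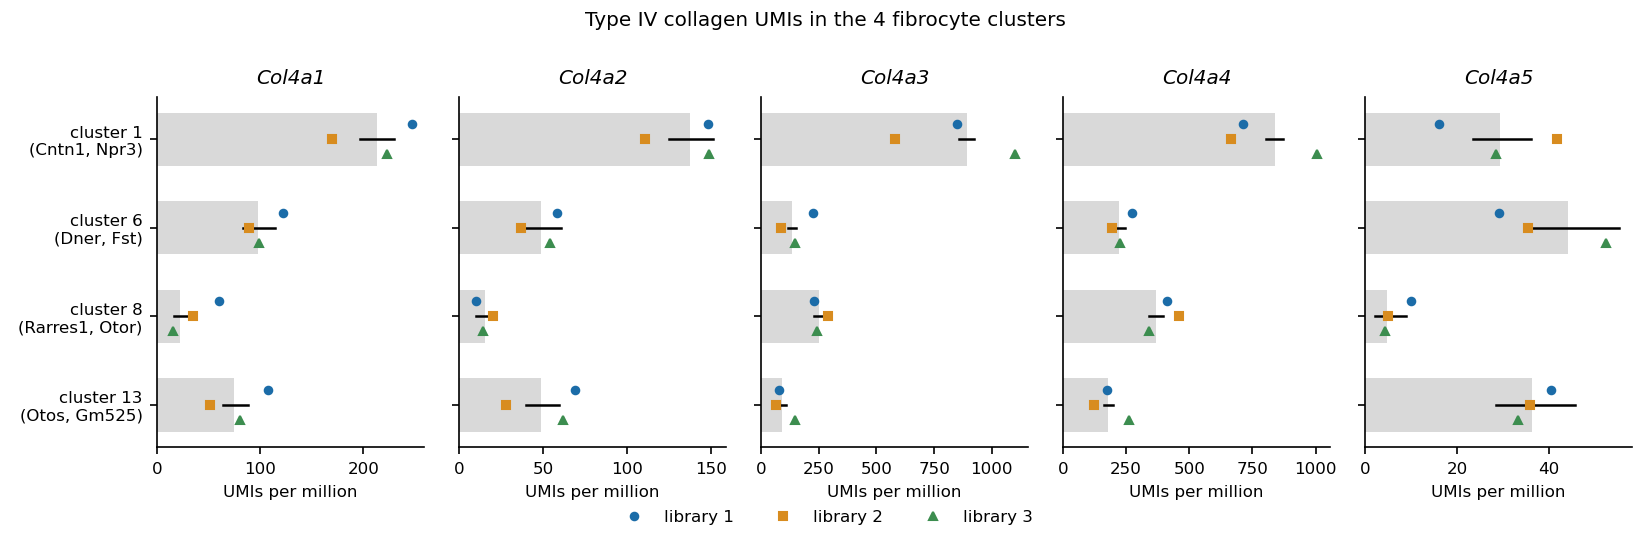
Level of Col4a1 to Col4a5 (CPM) in fibrocyte clusters 1, 6, 8 and 13. Bars give the 3 libraries summed with the 95% counting interval and symbols libraries 1, 2 and 3; Col4a3 stands at 891 CPM in cluster 1, and cluster 8 is lowest for Col4a1, Col4a2 and Col4a5.

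Col4a3 and Col4a4 were found in the same cells. Of fibrocyte-like cells with a Col4a3 UMI, 87.8% also had one of Col4a4, against 41.9% of those without, and the shares were 84.7%, 90.8% and 87.2% with Col4a3 in libraries 1, 2 and 3. Cells with Col4a3 were slightly deeper, at a median of 5124 UMIs against 4482. With every cell thinned to 1000 UMIs the shares were 55.5% with Col4a3 and 23.6% without. In cluster 1 alone 90.9% of cells with Col4a3 had Col4a4, against 54.6% of those without, or 60.5% against 40.6% after thinning. Col4a5 was not found more often in such cells: 10.2% of fibrocyte-like cells with Col4a3 held it, against 15.5% of those without. Endothelial-like cells with Col4a1 had Col4a2 in 81.6% of cases, against 36.1% without, or 47.2% against 31.0% after thinning, where the depth of the unthinned groups was 5499 against 2025 UMIs.

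Other clusters split the fibroblasts. A fibroblast cluster led by Postn, Pthlh and Epyc (183 cells) had 99.2 CPM of Col4a5 (79.7 to 122) and 83.6 CPM of Col4a1, while one led by Col3a1 and Aspn (156 cells) had 405 CPM of Col4a1 (362 to 452). The first measured 160, 60.8 and 108 CPM of Col4a5 in libraries 1, 2 and 3. In the gated Schwann-like class of glia, 33 of 34 Col4a3 UMIs came from library 3, and the level of 44.3 CPM was 2.44 CPM without it.

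The 3 libraries differed in the mix of the fibrocyte clusters. Cluster 1 made up 57.5%, 37.3% and 35.1% of the fibrocyte cluster cells in libraries 1, 2 and 3, and cluster 8 made up 7.09%, 17.5% and 29.3%. Within the gated fibrocyte-like class, Col4a1 was at least 1.5-fold higher in library 1 than the geometric mean of the other libraries (log2 0.74), as were 19.8% of 11445 genes. Col4a3 was at least 1.5-fold lower in library 2 (log2 -0.82), as were 14.7%. Both shares of the background are large, and with the stricter gate the values were 0.43 and -0.29. Within cluster 1 the log2 ratio of Col4a3 was 0.08 in library 1, -0.73 in library 2, where 12.3% of 10012 genes were at least 1.5-fold lower, and 0.65 in library 3, where 11.1% were at least 1.5-fold higher. Median depth of the fibrocyte-like cells was 3548, 6156 and 4749 UMIs, and the part of depth and cell mix in these values was not tested.

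Other basement membrane genes were set beside the family. Of 25 genes of laminins and other basement membrane proteins, 18 had enough UMIs in endothelial-like and fibrocyte-like cells, of which 6 were at least 2-fold higher and 5 at least 2-fold lower in endothelial-like cells, beside 15.0% and 16.5% of all genes. The median log2 ratio was 0.44, against 0.03 over all genes. Sparc, a collagen-binding matrix protein, had 2958 CPM in endothelial-like cells and 2075 CPM in fibrocyte-like cells. Tinagl1 had 132 CPM in endothelial-like cells and 17.5 CPM in fibrocyte-like cells, Lamb2 (laminin β2) 111 and 263 CPM, and Npnt (nephronectin, an integrin ligand) 57.5 and 61.9 CPM. In epithelial-like cells 8 of 22 genes were higher and 10 lower than in fibrocyte-like cells, beside 15.5% and 14.7% of all genes, with a median of -0.62 against 0.10 over all genes. Npnt had 285 CPM in epithelial-like cells against 61.9 CPM in fibrocyte-like cells, and Sparc 483 against 2075 CPM.

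Of the genes for collagen folding, transport and crosslinking, 4 of 19 were higher and 3 lower in endothelial-like than in fibrocyte-like cells, beside 15.0% and 16.5% of all genes, with a median of -0.10 against 0.03. Hspa5, a chaperone of the endoplasmic reticulum, had 848 CPM in endothelial-like cells and 830 CPM in fibrocyte-like cells, and Ppib, a prolyl isomerase, 272 and 362 CPM. Serpinh1, the collagen chaperone HSP47, had 320 CPM in endothelial-like cells and 313 CPM in fibrocyte-like cells, and Plod2, a lysyl hydroxylase, 32.0 and 152 CPM. In epithelial-like cells 1 of 18 was higher and 9 lower than in fibrocyte-like cells, beside 15.5% and 14.7% of all genes, with a median of -0.69 against 0.10, and Serpinh1 had 60.1 CPM. Among receptors for collagen or laminin, 5 of 10 were higher and 3 lower in endothelial-like cells, beside 15.0% and 16.5% of all genes, with a median of 0.97 against 0.03. In epithelial-like cells 4 of 9 were higher and 2 lower, beside 15.5% and 14.7%, with a median of 0.17 against 0.10. Itgb1, the integrin β1 chain that pairs with many α chains, had 348 CPM in endothelial-like cells and 310 CPM in fibrocyte-like cells. Itga1, the integrin chain that binds type IV collagen, had 629 CPM in endothelial-like cells against 55.2 CPM in fibrocyte-like cells. Itga6, a laminin receptor chain, had 311 CPM in endothelial-like cells and 39.8 CPM in epithelial-like cells, against 3.76 CPM in fibrocyte-like cells. Dag1 (dystroglycan) had 113 and 145 CPM in endothelial-like and fibrocyte-like cells. Col4a3bp, whose human product was first described as a kinase of the α3 chain and which is a ceramide transporter, had 126 CPM in endothelial-like cells against 60.0 CPM in fibrocyte-like cells, so it did not follow Col4a3.

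Likeness of pattern was measured by Pearson's r of log2(CPM + 1) over the 10 classes among 11314 genes, as a description with no p. Classes share libraries but differ in depth, from a median of 3004.5 UMIs in myelinating Schwann-like to 8644.5 in epithelial-like cells. Within the family, Col4a1 and Col4a2 had r = 0.996 and Col4a3 and Col4a4 r = 0.80, while Col4a1 and Col4a3 had r = 0.40 and Col4a3 and Col4a5 r = 0.21. Outside the family the genes most like Col4a1 were Mfsd4a (0.96), Plxnd1 (0.95) and Ulk2 (0.94), and Mfsd4a and Plxnd1 were also among the 3 most like Col4a2, with Mex3c. For Col4a3 they were Amotl2 (0.95), H6pd (0.94) and Grip1 (0.92), for Col4a4 Chst8 (0.95), Adrb1 (0.89) and Ankrd44 (0.89), and for Col4a5 Nif3l1 (0.96), 5930430L01Rik (0.93) and Fam120b (0.92). Amotl2 and H6pd were highest in Cxcl12-abundant stroma-like cells (322 and 39.0 CPM). The Col4a3 UMIs of that class all lay in cells of the fibrocyte clusters. With ranks in place of levels (Spearman), none of the 3 genes named for Col4a1, Col4a2, Col4a3 or Col4a4 stayed among the closest 3, and 1 of 3 did for Col4a5.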

How the data were processed

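The deposited table holds raw UMI counts per gene and barcode, written by Cell Ranger 7.1.0 per the file headers, with build GRCm39 per the submitters' processing notes. How cells were called and libraries pooled is not given in the sources used here. Barcodes were filtered on 500 UMIs, 200 genes and 20% mitochondrial UMIs. A barcode took the cochlear marker list with the highest mean log2(UMIs per 10000 + 1), among cochlear lists with at least 3 markers detected. That list had to lead the next by 0.25, and at most 2 pan-leukocyte markers could have a UMI. Barcodes with no such list took the blood list with the highest score in standard deviations over all barcodes. At least 3 of its markers had to be detected and the score had to exceed 0.5, with no margin. The genes studied and all lists were chosen with earlier results of these data known, and the margin after the Col4 levels had been seen without it, at 0.25 and at 0.5. The gate left out 154 barcodes between 2 lineages, and 1065 with leukocyte markers, of which scrublet called 27.9% doublets. Doublets (1907, 5.13%) were otherwise kept, and leaving them out is an alternative.

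UMIs were summed per class and library and divided into CPM here. A gene was compared between 2 classes at 20 or more summed UMIs, and called at 2-fold (between libraries 1.5-fold). Intervals (Poisson; for shares Clopper-Pearson) are 95% and cover counting error alone. A count of 0 allows 3 counts, and counts under 3 were set to 3 in log2 ratios and folds. Leiden clusters (8042 barcodes, 39 clusters, resolution 2, without Col4 genes) took the class that held at least 40% of their cells, a share set after seeing the data. Genes named besides the family are the 4 with the highest CPM in any class, markers left out, from each of 3 lists, the 1 gene of a further list, and the 3 most like each member. The epithelial subgroups and the leading genes of clusters are named as descriptions. Symbols are those of the count table. Windows are RefSeq's for GRCm38.p6, whose coordinates differ from the build of the counts, and were found for 5 of 6 genes. Python 3.11.15, scanpy 1.11.5, scipy 1.17.1, leidenalg 0.10.2, R 4.3.3 and edgeR 4.0.16 (TMM factors alone) were used.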

Additional observations from a re-analysis of the deposited data

Results flagged for a closer look

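Barcodes outside the cochlear classes held more type IV collagen RNA than leukocyte-like barcodes. In the 2521 barcodes that no marker list reached, Col4a1, Col4a2, Col4a3, Col4a4 and Col4a5 measured 9.15, 5.84, 23.7, 26.0 and 1.62 CPM, against 0.949, 0.916, 0.814, 1.33 and 0.114 CPM in leukocyte-like barcodes. Of the 655 cells of fibrocyte cluster 1, 189 were such barcodes. In the 1065 barcodes with a cochlear list and more than 2 pan-leukocyte markers, Col4a1, Col4a2, Col4a3, Col4a4, Col4a5 and Col4a6 measured 38.6, 23.5, 19.3, 23.4, 4.50 and 0.469 CPM, at a median of 15902 UMIs per barcode against 6130.5 in leukocyte-like ones. Neither set enters the gated classes. Barcodes that no list reached do enter the fibrocyte clusters, with 115 in cluster 6, 71 in cluster 8 and 20 in cluster 13.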

How the results depend on the processing

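No comparison of the noise groups was possible because each group has 1 library and no label ties a library to a group. The classes share libraries, so their ratios were also taken within each library. Endothelial-like over fibrocyte-like cells, the log2 ratio in libraries 1, 2 and 3 was 2.61, 2.48 and 2.73 for Col4a1. For Col4a3 it was -6.01, -4.54 and -5.64. Col4a1 and Col4a2 stayed higher and Col4a3 and Col4a4 lower in endothelial-like than in fibrocyte-like cells under every setting run. With a stricter gate the log2 ratios of Col4a1, Col4a2, Col4a3 and Col4a4 were 3.01, 3.28, -6.75 and -6.55. Over Leiden clusters those of Col4a3 and Col4a4 were -7.68 and -7.09, the first with 1 UMI counted as 3. The Col4a1 ratio was 2.67 without a margin between lists, chosen after seeing the data, and 2.61 as a geometric mean over libraries. Leaving out 1 library gave 2.66 to 2.89 for Col4a1, 2.81 to 2.98 for Col4a2, -5.74 to -5.09 for Col4a3 and -4.92 to -3.87 for Col4a4, whose value furthest from the main one was that without library 2. In epithelial-like over fibrocyte-like cells, Col4a4 was -2.60 with the stricter gate. Col4a5 changed direction there, at -0.15 over clusters, -0.13 as a geometric mean and -0.67 to 0.43 with 1 library left out. With the stricter gate the library 1 ratio of Col4a1 and the library 2 ratio of Col4a3 in fibrocyte-like cells no longer passed 1.5-fold (0.43 and -0.29). The cause was not tested. Of 38 single class levels, 23 moved beyond counting error over clusters, 16 with the stricter gate, 7 without a margin, 2 without doublets and 0 at 1000 UMIs or at 10% mitochondrial UMIs. Thinning moved the 4 shares of joint detection. TMM factors changed no library call (2 of 2). Counts are too low to place Col4a6.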
